A study of Homo sapiens with 8 samples.

Results

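Silencing of SFPQ was followed here across both cell lines of the study together, by setting the 4 silenced arrays against the 4 control arrays with the cell line as a covariate, so that all 8 of the 8 arrays of the series were used. MDAH (MDAH-2774) and SKOV3 are epithelial ovarian cancer lines. In each line 1 silenced array held cells transduced with sh-SFPQ#2 and the other cells with sh-SFPQ#3, and 2 arrays held cells that were not silenced. The labels give both controls of a line a control shRNA, but by the supplementary methods 1 of them was parental and the other sh-ctrl, so that only the absence of silencing is used here. The labels give no time after transduction and do not say that the arrays of a group came from separate cultures, so that p-values measure the spread between these arrays, which for silenced cells includes the difference between shRNAs.

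A gene was called separated when both silenced arrays lay above both controls, or below both, in MDAH and in SKOV3 alike. Of 15552 genes tested, 1931 were separated upward (12.4%) and 1597 downward (10.3%). Opposite separation, upward in 1 line and downward in the other, was found for 1827 genes. Levels are log2 signals relative to the 75th percentile of the array, and a change is the silenced minus the control level, averaged over the lines by limma with its standard error (SE).

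SFPQ is a nuclear RNA- and DNA-binding protein of the DBHS family, which it forms with NONO (p54nrb) and PSPC1. These proteins pair with one another, bind introns of nascent RNA, take part in splicing and, together with the long noncoding RNA NEAT1, build the nuclear bodies called paraspeckles. SFPQ is also known to be needed for complete transcription of genes with very long introns.

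All 8 arrays shared 1 slide and 1 scan. A line filled 1 row of the slide, the controls first and the silenced cells next, and position and group therefore cannot be told apart. The 75th percentile of the signal lay between 387 and 496 on 7 arrays and at 244 on the MDAH sh-SFPQ#3 array, and 47.7% to 57.0% of the probes of an array were well above background. The epithelial ovarian markers PAX8, EPCAM, KRT7, KRT8, KRT18 and KRT19 were well above background on all 8 arrays, while WT1 was so on 4 and MUC16 on 2. None of the 10 leukocyte markers and none of the 6 endothelial markers tested was separated. Of the 6 fibroblast and smooth muscle markers tested 2 were separated upward and 1 downward, and their summed linear level ranged from 2.1 to 2.3 in MDAH controls, 2.6 to 3.1 in silenced MDAH cells, 1.3 to 1.5 in SKOV3 controls and 1.8 in both silenced SKOV3 arrays. Their part in the results was not tested.

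The silenced gene was lower on every silenced array. SFPQ stood at 3.64 and 3.91 in MDAH controls against 2.45 (sh-SFPQ#2) and 2.10 (sh-SFPQ#3) after silencing, and at 4.84 and 4.66 in SKOV3 controls against 3.01 and 2.48 in the same order. The groups did not overlap in either line, and the lower value of each pair was that of sh-SFPQ#3. The change was -1.75 (SE 0.18, adjusted p = 0.00676 from limma), and no difference between the lines was found (MDAH minus SKOV3 0.51, adjusted p = 0.488 from limma). Each array measured the RNA of a whole culture, so that fewer cells with a transcript and less of it per cell cannot be told apart.

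In the shared fit 202 genes were higher (1.3% of those tested) and 387 were lower (2.49%) at an adjusted p under 0.05, and all 589 were separated in both lines. Falls were the larger changes: 561 of the genes separated downward changed by over 1 on the log2 scale, against 159 of those separated upward, and the medians were -0.72 and 0.43. The median over all genes tested was 0.04. At least 1 group had no array well above background for 366 of the genes separated downward and 192 of those separated upward. The sizes of these changes are not exact. Across genes, which are not independent replicates, the changes in MDAH and in SKOV3 had a Pearson correlation of 0.42 and a Spearman correlation of 0.31. The difference between the lines passed the test for 15 genes (0.0965%), 5 of which were separated the same way in both.

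**Figure D1:**
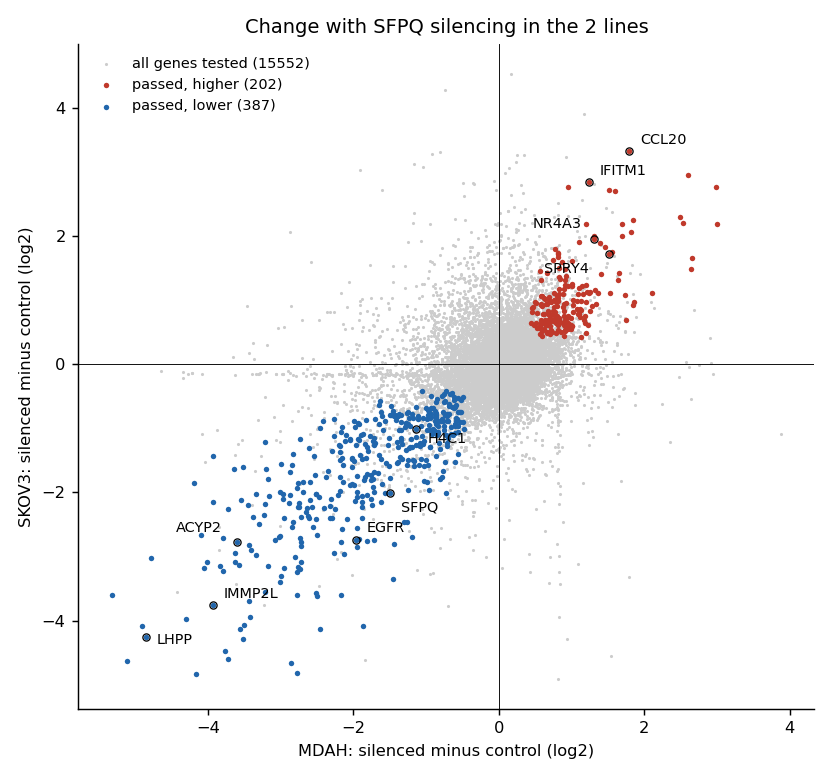
Each point is a gene, with its silenced minus control difference (log2) in MDAH on the x axis and in SKOV3 on the y axis. The 202 genes that passed upward (red) and the 387 that passed downward (blue) lie in the quadrants where the lines share a direction, and the falls reach further from 0 than the rises.

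These counts depended on single arrays. With 1 array left out in turn, 9 to 205 genes passed upward and 42 to 444 downward. The counts were 9 and 42 without MDAH control 1, 11 and 47 without MDAH control 2, 65 and 224 without MDAH sh-SFPQ#3, 27 and 102 without SKOV3 control 1, 36 and 120 without SKOV3 control 2, and 39 and 171 without SKOV3 sh-SFPQ#3. Of the 94 called genes named here, ACYP2, FAT4, FOXP2, HIPK2, HOXD3, IQCH, KCNE5, KCNQ1, SPECC1, SPRY4, TENM3 and ZFHX4 passed in all 8 of these fits.

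The lowest shared change among genes measured above background on all arrays was that of LHPP, a phosphatase that acts on phosphohistidine. Its level was 3.43 and 3.32 in MDAH controls against -0.19 (sh-SFPQ#2) and -2.77 (sh-SFPQ#3), and 2.86 and 2.06 in SKOV3 controls against -0.48 and -3.10 in that order. LHPP thus changed by -4.55 (SE 0.68, adjusted p = 0.0204 from limma), with the groups far apart in both lines and the sh-SFPQ#3 array lowest. IMMP2L, a subunit of the mitochondrial inner membrane peptidase, changed by -3.84 (adjusted p = 0.0283 from limma). ACYP2, an acylphosphatase, stood at 1.20 and 0.87 in MDAH controls against -2.14 and -3.01 after silencing, and at 0.76 and 0.25 in SKOV3 controls against -2.02 and -2.52. It changed by -3.19 (SE 0.27, adjusted p = 0.00362 from limma), and its shRNAs lay closer together than those of LHPP.

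Other genes among the 15 lowest came from unlike pathways. KLHL29 of the kelch-like family (-3.68), the transcription factor ZFHX4 (-3.39), the ESCRT subunit MVB12B (-3.29), the RNA demethylase FTO (-3.16) and the lysine methyltransferase SMYD3 (-3.16) fell. So did PRKCA, which encodes protein kinase C alpha (-3.13), the phosphatidylethanolamine methyltransferase PEMT (-3.04), the exchange factor VAV2 (-2.96), CCDC3 (-2.90), the myosin MYO1D (-2.88) and CSTPP1 (-2.84). Their adjusted p-values from limma lay between 0.00567 for ZFHX4 and 0.0430 for VAV2. Other genes that passed had no silenced array above background in at least 1 line, so that a fold could only be bounded. Averaged over the lines, TRAPPC9, which encodes a vesicle tethering subunit, was at least 11.45-fold lower, with 6 arrays above background. NALF1 was 7.67-fold lower, the noncoding MIR924HG 9.31-fold, LINGO2 11.3-fold and the transporter gene SLC35F3 11.4-fold, each with 5 arrays above background. In these 4 genes 1 silenced array of the other line was dim and entered as measured, so that their folds are not strict lower bounds. The adjusted p-values of the 5 genes lay between 0.0104 and 0.0428 from limma.

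**Figure D2:**
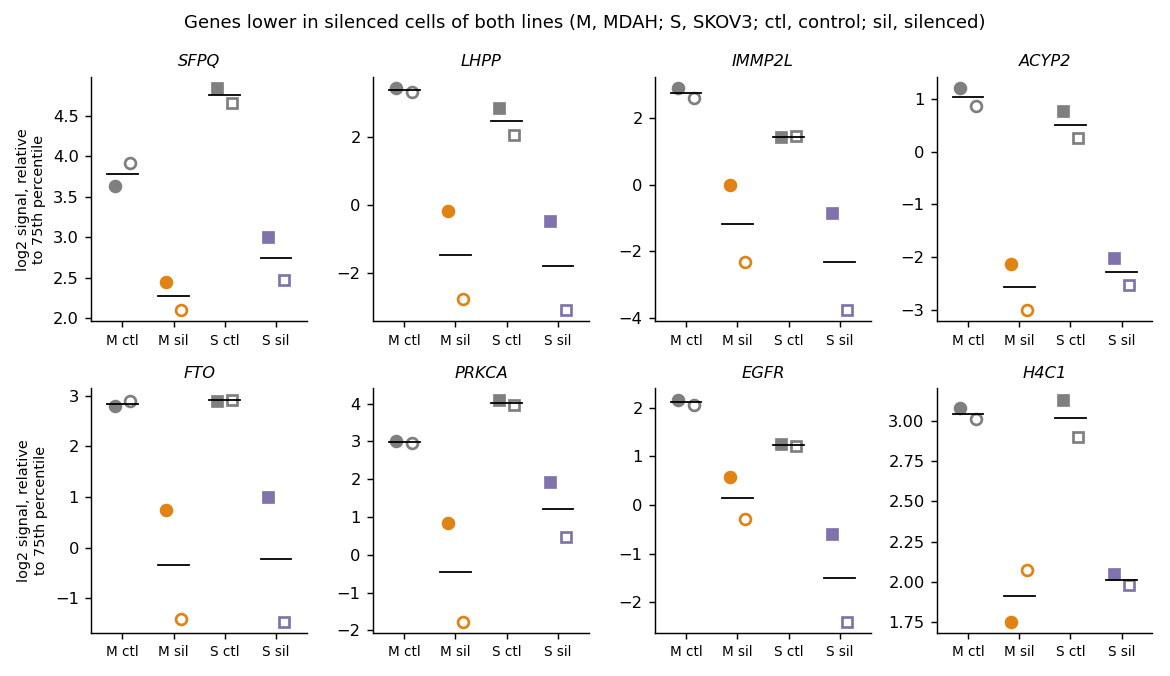
Log2 signal relative to the array's 75th percentile for SFPQ and 7 genes lower in both lines, with 1 point per array and a bar for the mean of 2. Circles are MDAH and squares SKOV3, grey points are controls (filled, control 1, open, control 2), and coloured points are silenced cells (filled, sh-SFPQ#2, open, sh-SFPQ#3). The open coloured point is the lower of its pair in both lines for each gene except H4C1, where this holds in SKOV3 only.

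Which shRNA gave the lower value was largely shared between the lines. Of the 387 genes that passed downward, 284 (73.4%) were lower with sh-SFPQ#3 than with sh-SFPQ#2 in both lines and 17 (4.39%) were higher in both, against 30.9% and 30.3% of all genes tested. Of the 202 that passed upward, 120 (59.4%) were higher with sh-SFPQ#3 in both lines and 14 (6.93%) lower. SFPQ itself was lower with sh-SFPQ#3 in both lines. The MDAH sh-SFPQ#3 array was also the dimmest of the 8, and the part of either in this order was not tested. Without both sh-SFPQ#3 arrays 72 genes passed upward and 375 downward, and without both sh-SFPQ#2 arrays 424 and 886 did.

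Genes known for very long introns were the list, of the 55 examined, with the largest share of members separated in 1 direction. Of 64 tested, 34 (53.1%) were separated downward and 1, the channel-interacting protein gene KCNIP4, upward, and 18 passed downward, where 10.3% and 2.49% of all genes did so. The median change of the list was -0.90, at -1.09 in MDAH and -0.58 in SKOV3, and 30 of 94 listed genes did not reach the tests. The list was written from general knowledge, without coordinates. Earlier results of these data were known by then, so that the share of members separated is not independent of them. A gene entered the tests if a single group was above background, so that members bright only in controls are included. Of the 31 members above background on all 8 arrays 17 were separated downward, and their median change was smaller, at -0.60. With normexp background correction and quantile normalization the median of the list was -0.53.

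The lowest members were GPC6, TRAPPC9 and ERBB4. GPC6, a glypican of the cell surface, stood at 0.94 and 0.85 in MDAH controls against -2.52 (sh-SFPQ#2) and -5.92 (sh-SFPQ#3), and at 1.81 and 1.29 in SKOV3 controls against -1.58 and -4.56 in that order. It changed by -4.87 (SE 0.82, adjusted p = 0.0265 from limma), with 6 arrays above background, 1 of them silenced in each line. ERBB4, a receptor of the epidermal growth factor family, changed by -3.98 but did not pass (SE 0.89, adjusted p = 0.0526 from limma), and its SKOV3 control 2 lay at -1.32, between control 1 at 0.80 and the silenced arrays at -2.20 and -5.42. IMMP2L, FTO, SMYD3 and PRKCA, given above, are members too. FTO stood at 2.79 and 2.89 in MDAH controls against 0.74 and -1.41 after silencing, and at 2.90 and 2.92 in SKOV3 controls against 1.001 and -1.46, nearly the same 4 levels in both lines. SLIT3, a secreted ligand of ROBO receptors, changed by -2.68 (adjusted p = 0.0234 from limma) and RAD51B, which serves DNA repair by recombination, by -2.46 (adjusted p = 0.0396 from limma). The teneurin TENM3 was at least 2.01-fold lower and the transcription factor FOXP2 at least 1.38-fold (adjusted p = 0.00596 from limma for both), with 4 arrays above background each.

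Single ERBB signalling genes moved in both directions. EGFR, the epidermal growth factor receptor, stood at 2.17 and 2.06 in MDAH controls against 0.58 and -0.28 after silencing, and at 1.26 and 1.21 in SKOV3 controls against -0.60 and -2.40. It changed by -2.35 (SE 0.39, adjusted p = 0.0264 from limma), and its other 2 probes changed by -2.67 and -2.01. In the same list of 20 tested ERBB receptors, ligands and feedback genes, the ligand gene NRG2 changed by -1.29 without passing (adjusted p = 0.0736 from limma). The feedback inhibitors SPRY4 and SPRY2 rose. SPRY4 stood at -2.48 and -2.17 in MDAH controls against -0.88 and -0.75, and at -2.86 and -2.36 in SKOV3 controls against -0.73 and -1.07, a change of 1.61 (SE 0.16, adjusted p = 0.00596 from limma). SPRY2 changed by 0.66 (adjusted p = 0.0314 from limma) and ERRFI1, another inhibitor of the receptor, by 0.68 without passing (adjusted p = 0.0652 from limma). Of the 20 members tested, 3 were separated upward and 4 downward, where 12.4% and 10.3% of all genes were. These counts are too small to tell the list from all genes, and the statement on both directions concerns single genes only.

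Axon guidance genes, which encode ligands and receptors that steer growing cell processes, also moved in both directions. Of 46 tested, 14 (30.4%) were separated upward and 12 (26.1%) downward, against 12.4% and 10.3% of all genes, and 3 and 5 passed. Of the 28 above background on all 8 arrays 12 were separated upward and 5 downward. The falls included SLIT3, its receptor ROBO1 (at least 1.76-fold lower, adjusted p = 0.0372 from limma), the ephrin EFNA5 (at least 2.56-fold, adjusted p = 0.0283 from limma), the ephrin receptor EPHB2 (-2.22, adjusted p = 0.0333 from limma) and the netrin receptor UNC5A (at least 1.88-fold, adjusted p = 0.0353 from limma). The ligand NTN1 changed by -2.76 without passing (adjusted p = 0.0640 from limma). All 3 rises that passed were semaphorins, SEMA3F (0.93), SEMA4B (0.75) and SEMA4F (0.71), with adjusted p-values of 0.0264, 0.0362 and 0.0380 from limma.

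Of 96 ion channel genes tested, 23 (23.96%) were separated downward and 8 upward, against 10.3% and 12.4% of all genes, with a median change of -0.05. Of the 42 above background on all 8 arrays 7 were separated each way. The potassium channel gene KCNQ1 was at least 7.49-fold lower (adjusted p = 0.00377 from limma), and KCNE5, which encodes an accessory subunit of such channels, changed by -2.72 (SE 0.25, adjusted p = 0.00481 from limma). The calcium channel subunit gene CACNA2D3 was at least 3.76-fold lower (adjusted p = 0.0111 from limma). KCNJ13 rose by 1.11 (adjusted p = 0.0276 from limma) and SCN3A was at least 1.63-fold higher (adjusted p = 0.0366 from limma). Of 35 HOX genes 5 (14.3%) were separated downward, near the 10.3% of all genes, and none upward. HOXD3 passed as at least 4.72-fold lower (adjusted p = 0.00799 from limma). Among genes of the tricarboxylic acid cycle and fatty acid oxidation 9 of 40 (22.5%) were separated downward and 2 (5.0%) upward. SUCLG2 (-1.26) and HADH (-0.53) passed (adjusted p = 0.0397 and 0.0393 from limma).

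Histone genes that are switched on in DNA replication are short and without introns. Of 67 tested, 27 (40.3%) were separated downward and none upward, against 10.3% and 12.4% of all genes. Of the 67, 4 passed downward, where 2.49% of all genes did so: H4C1, H3C10, H2AC11 and H2AC6. H4C1 stood at 3.08 and 3.01 in MDAH controls against 1.75 and 2.07 after silencing, and at 3.13 and 2.90 in SKOV3 controls against 2.05 and 1.98. It changed by -1.07 (SE 0.13, adjusted p = 0.00887 from limma), H3C10 by -0.998, H2AC11 by -0.76 and H2AC6 by -0.69 (adjusted p between 0.0285 and 0.0355 from limma). H4C9 and H3C11, with changes of -1.03 and -1.003, did not pass, and the smallest change among the separated members was -0.37, for H4C13. The median of the list relative to the controls was -0.36 and -0.64 on the MDAH arrays of sh-SFPQ#2 and sh-SFPQ#3, but -0.05 and -0.79 on those of SKOV3. With both sh-SFPQ#2 arrays left out 47 members were separated downward, but fewer arrays must then agree, and 3263 of all genes tested were separated downward too. With normexp background correction and quantile normalization 17 members were. Histone genes of a type are nearly identical in sequence, so that a probe may report several of them, and single members are uncertain.

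Rises were smaller. Interferon-stimulated genes encode antiviral and antigen-presenting proteins that are switched on together by interferons. Of 73 tested, 26 (35.6%) were separated upward, none downward and 3 in opposite directions, and 8 passed upward, where 12.4% and 1.3% of all genes did so. The median change was 0.35, at 0.23 and 0.34 on the MDAH sh-SFPQ#2 and sh-SFPQ#3 arrays and at 0.61 and 0.43 on those of SKOV3. The 8 that passed were IFITM1, OASL, IFIT3, PARP12, IRF9, HERC6, UBA7 and BST2. None of them was among the genes named above that passed in every fit with 1 array left out.

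IFITM1, a membrane protein that hinders virus entry, stood at 1.66 and 1.83 in MDAH controls against 2.86 (sh-SFPQ#2) and 3.12 (sh-SFPQ#3), and at 0.87 and 0.22 in SKOV3 controls against 3.68 and 3.09 in that order. The change of 2.04 (SE 0.34, adjusted p = 0.0265 from limma) was matched by a second probe, at 2.14. IRF9, the DNA-binding subunit of the interferon-activated factor ISGF3, stood at 1.24 and 1.36 against 1.93 and 2.23 in MDAH, and at -0.50 and -0.27 against 0.73 and 0.45 in SKOV3. It rose by 0.88 (SE 0.14, adjusted p = 0.0223 from limma). PARP12, an antiviral ADP-ribosyltransferase, rose by 0.92 (SE 0.12, adjusted p = 0.0120 from limma), OASL by 2.15 and IFIT3 by 1.08 (adjusted p = 0.0378 and 0.0441 from limma). HERC6 and UBA7, a ligase of the HERC family and the enzyme that activates ISG15 for conjugation, rose by 0.83 and 0.78, and BST2 (tetherin) by 0.78 (adjusted p between 0.0283 and 0.0416 from limma). Not all members followed: OAS1 (1.86), the RNA sensor IFIH1 (1.07), IFIT1 (0.80) and ISG15 (0.78) were separated without passing (adjusted p between 0.0570 and 0.167 from limma).

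The controls were not alike for these genes. Control 2 lay above control 1 in both lines for 49 of the 73 members (67.1%) and below it in both for 2, against 33.0% and 22.3% of all genes tested, and for IFIT1 the MDAH controls stood at 0.48 and 1.96 against 2.16 and 2.29 after silencing. Without both arrays of control 1 the median change of the list was 0.24 and 29 members were separated upward, and without both of control 2 these were 0.56 and 48. With fewer arrays to agree, the counts of separated members could only stay the same or rise. The part of the control that each sample carried was not tested, as the sources disagree on it.

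Promoters of 3 genes of this list that passed, and of HLA-F and B2M from the HLA class I list described next, are shown because their sequence holds the motif bound by ISGF3. The interferon-stimulated response element was searched as GAAANNGAAA on both strands, with overlapping matches allowed, in the 300 bases around each gene start, from 250 before to 50 after it, in RefSeq promoters of the build GRCh38.p14. It was in 1255 of 35116 promoters (3.57%). An entry was at hand for 20 of the 26 separated members, which is too few for a share over the list. Of these 20, 14 held the motif, as did 33 of the 53 members tested that had an entry, separated or not. Over all genes with an entry, 482 of 12071 tested and 67 of 1519 separated upward held it. The motif was thus common in the list as a whole, and its part in the rise was not tested. The windows below lie within these promoters, read 5′ to 3′ on the strand of the gene, with the motif in capitals.
IFITM1, chr11:313965-314044, plus strand: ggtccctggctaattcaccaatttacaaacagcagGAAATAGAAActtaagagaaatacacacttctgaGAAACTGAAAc
IFIT3, chr10:89327806-89327885, plus strand: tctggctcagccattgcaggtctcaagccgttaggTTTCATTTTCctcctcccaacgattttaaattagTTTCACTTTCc
BST2, chr19:17405716-17405795, minus strand: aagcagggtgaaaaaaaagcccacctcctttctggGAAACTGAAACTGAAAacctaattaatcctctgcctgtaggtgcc
HLA-F, chr6:29723243-29723322, plus strand: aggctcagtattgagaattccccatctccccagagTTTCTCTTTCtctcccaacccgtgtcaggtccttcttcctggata
B2M, chr15:44711338-44711417, plus strand: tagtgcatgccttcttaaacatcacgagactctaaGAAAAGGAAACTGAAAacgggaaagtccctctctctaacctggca
A match is a description of these letters, and binding was not measured.

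HLA-F and B2M belong to the presentation of peptides by HLA class I, the pathway by which cells show fragments of their proteins to T cells. Of 25 genes tested in it, 12 (48.0%) were separated upward, none downward and none in opposite directions, with a median change of 0.35, and 1 passed. Over all genes tested 12.4% were separated upward and 10.3% downward. HLA-F, which passed, stood at 6.21 and 6.38 in MDAH controls against 6.68 and 6.89 after silencing, and at 6.85 and 6.80 in SKOV3 controls against 7.90 and 7.69. It rose by 0.73 (SE 0.15, adjusted p = 0.0380 from limma), and its second probe changed by 0.80. The peptide transporter TAP1 changed by 0.80 (adjusted p = 0.0537 from limma), the peptide-trimming enzyme ERAP1 by 0.74 (adjusted p = 0.0516 from limma) and the light chain B2M by 0.55 (adjusted p = 0.0628 from limma), each separated without passing. The heavy chain HLA-C, at 0.39, was separated with a small change (adjusted p = 0.108 from limma). With quantile normalization or in the value table of the authors, 7 members were separated upward instead of 12. HLA heavy chains are nearly identical in sequence, so that a probe may report several of them, and TAP1 and PSMB9 are members of the interferon list too. HLA-DMB, which serves peptide loading in class II, was at least 2.68-fold higher (adjusted p = 0.0353 from limma), with 6 arrays above background, and the long noncoding RNA HCP5 of the HLA region rose by 1.29 (adjusted p = 0.0388 from limma).

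**Figure D3:**
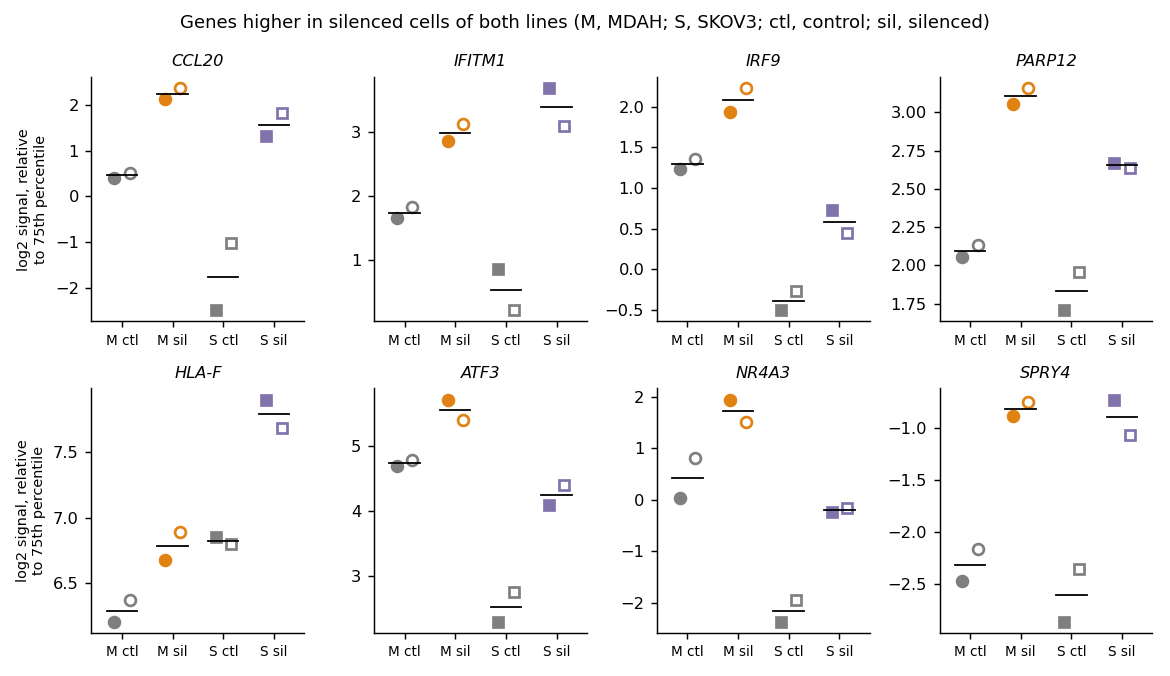
Log2 signal relative to the array's 75th percentile for 8 genes higher in both lines, with 1 point per array and a bar for the mean of 2. Circles are MDAH and squares SKOV3, grey points are controls (filled, control 1, open, control 2), and coloured points are silenced cells (filled, sh-SFPQ#2, open, sh-SFPQ#3). Both coloured points of a line lie above both grey points for each gene, whereas the level of a gene can differ widely between the lines.

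The highest shared change among genes above background on all arrays was that of CCL20, the chemokine ligand of CCR6. It stood at 0.40 and 0.51 in MDAH controls against 2.13 and 2.36 after silencing, and at -2.50 and -1.03 in SKOV3 controls against 1.31 and 1.82. CCL20 rose by 2.56 (SE 0.40, adjusted p = 0.0231 from limma), and the silenced levels of the lines lay closer together than their control levels. Of 47 inflammatory cytokine and NF-kappaB genes tested, 9 (19.1%) were separated upward and none downward, against 12.4% and 10.3% of all genes. CCL20 alone passed, and IL6, at 1.18, did not (adjusted p = 0.233 from limma). The chemokine receptor gene CXCR4 was at least 2.62-fold higher, TCIM at least 4.87-fold, IQCH at least 3.98-fold and the muscle actin gene ACTA1 at least 2.45-fold (adjusted p between 0.00362 and 0.0430 from limma), with 4 to 6 arrays above background. The sulfotransferase SULT4A1 (2.37), the palmitoyltransferase ZDHHC11 (2.11), LRRC70 (1.85), TRIM29 of the tripartite motif family (1.65), the ETS factor ETV4 (1.40), SPECC1 (1.32, with a second probe at -0.79) and the ciliary gene DRC10 (1.31) were among the 15 highest changes, with IFITM1, NR4A3, SPRY4, HIPK2, HCP5 and DUSP1, and their adjusted p-values lay between 0.00915 and 0.0357 from limma. ZDHHC11 has a nearly identical paralog and is uncertain for that reason.

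Immediate early genes, which respond within minutes to growth factors or stress and need no protein synthesis to do so, were separated more often upward than downward. Of 32 tested, 15 (46.9%) were separated upward and 1 downward, against 12.4% and 10.3% of all genes. The median change was 0.54, and the rises of NR4A3, DUSP1 and ATF3 passed. NR4A3, an orphan nuclear receptor, stood at 0.03 and 0.80 in MDAH controls against 1.94 and 1.51 after silencing, and at -2.37 and -1.95 in SKOV3 controls against -0.25 and -0.16. It rose by 1.63 (SE 0.23, adjusted p = 0.0176 from limma). DUSP1, a phosphatase that switches off MAP kinases, rose by 1.27 and the stress-induced factor ATF3 by 1.26 (adjusted p = 0.0380 and 0.0280 from limma). FOSB, at 1.29, did not pass (adjusted p = 0.0604 from limma), and CCN2, which is also a target of YAP, fell by 0.56 on the log2 scale (adjusted p = 0.0389 from limma). Control 2 again lay above control 1 in both lines for 11 of the 15 separated members and below in both for none, and the median change of the list was 0.41 without both arrays of control 1 and 0.76 without both of control 2.

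The cyclic AMP response element, the motif TGACGTCA that reads alike on both strands, was in 649 of 35116 promoters (1.85%) and in the promoter of 1 of the 12 separated immediate early genes with an entry, DUSP1. It is shown, with the motif in capitals, because DUSP1 rose in both lines.
DUSP1, chr5:172771278-172771355, minus strand: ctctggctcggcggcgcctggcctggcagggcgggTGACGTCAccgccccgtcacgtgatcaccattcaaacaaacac

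**Figure D4:**
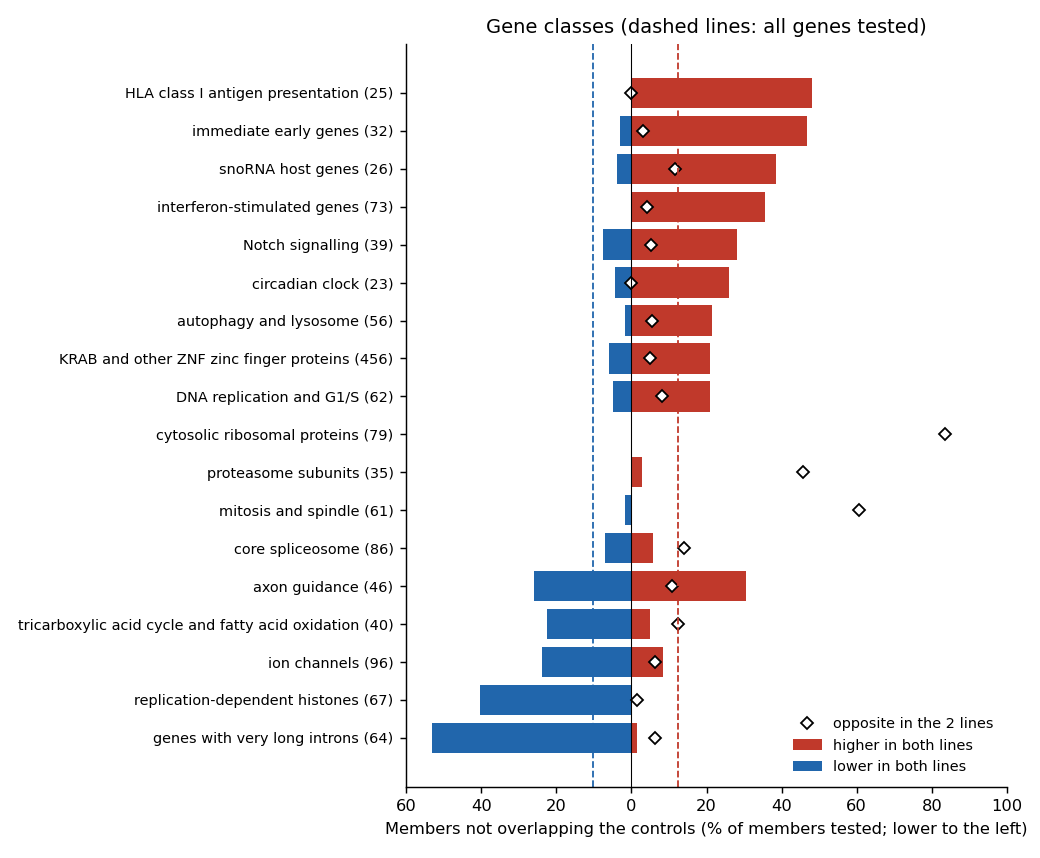
For 18 gene classes, with the number of members tested in brackets, bars give the percent of members separated upward (red, to the right) or downward (blue, to the left) in both lines, and diamonds the percent separated in opposite directions. Dashed lines mark the shares of all genes tested, 12.4% and 10.3%. Very long introns and histones reach furthest left, HLA class I and immediate early genes furthest right, and the ribosomal, mitosis and proteasome genes have their diamonds far from 0 and almost no bars.

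Stress and signalling classes had smaller shifts, and the shares of all genes to set beside those below are 12.4% upward and 10.3% downward. The death receptor gene TNFRSF10B rose by 0.71 and TIGAR, which restrains glycolysis, by 0.83 (adjusted p = 0.0280 and 0.0478 from limma), while SESN2 changed by 0.98 without passing (adjusted p = 0.0700 from limma) and CDKN1A, the cell cycle inhibitor p21, was above background on 4 arrays and did not pass (adjusted p = 0.0584 from limma). Of 56 autophagy and lysosome genes 12 (21.4%) were separated upward and 1 (1.79%) downward. The autophagy receptor SQSTM1 rose by 0.78 (adjusted p = 0.0355 from limma), and ATG10, an enzyme of autophagosome formation, fell by 1.11 on the log2 scale (adjusted p = 0.0129 from limma). Of 23 clock genes 6 (26.1%) were separated upward and 1 (4.35%) downward. NR1D1 passed (0.92, adjusted p = 0.0376 from limma), and PER2 (0.84) and PER1 (0.58) did not (adjusted p = 0.0565 and 0.0591 from limma). Of 39 Notch pathway genes 11 (28.2%) were separated upward and 3 (7.69%) downward. The glycosyltransferase gene MFNG passed with a rise of 1.18 (adjusted p = 0.0357 from limma). The chaperone gene DNAJB9 of the unfolded protein response rose by 0.71 (adjusted p = 0.0442 from limma). Zinc finger genes named ZNF, most of them repressors of transcription, were separated upward in 95 of 456 cases (20.8%) and downward in 27 (5.92%), with 8 passing each way. Of 26 host genes of small nucleolar RNAs 10 (38.5%) were separated upward and 1 downward, and none passed. The median of that list relative to the controls was 0.45 and 0.46 on the silenced MDAH arrays. On the silenced SKOV3 arrays it was 0.02 and 0.03, within the SKOV3 controls at -0.03 and 0.03.

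The partners of SFPQ, NONO and PSPC1, did not pass. NONO stood at 4.82 and 4.85 in MDAH controls against 4.98 and 5.03, and at 5.77 and 5.68 in SKOV3 controls against 5.61 and 5.21, so that its lines were separated in opposite directions and its shared change was -0.08 (adjusted p = 0.806 from limma). PSPC1 overlapped in SKOV3 (0.46, adjusted p = 0.237 from limma). NEAT1 was separated upward, at 6.02 and 6.26 against 6.56 and 6.45 in MDAH and at 5.44 and 5.60 against 6.08 and 6.44 in SKOV3, without passing (0.56, adjusted p = 0.0782 from limma). Its other 3 probes changed by 0.72 to 0.93. CASP9, the initiator caspase of the mitochondrial pathway, and the checkpoint kinase gene ATR were separated upward without passing (0.41 and 0.43, adjusted p = 0.134 and 0.104 from limma). SGK2 fell by 0.99 on the log2 scale and passed (adjusted p = 0.0357 from limma). For MALAT1, SRSF2, CASP8, BCL2L1, PARP1, H2AX and USP1 silenced and control arrays overlapped in at least 1 line.

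Splicing factors as a class did not share a direction. Of 86 core spliceosome genes 5 (5.81%) were separated upward, 6 (6.98%) downward and 12 in opposite directions. Over all 15552 genes tested the shares were 12.4% and 10.3%, and 1827 genes were separated in opposite directions. Of 47 hnRNPs and other regulators of alternative splicing 3 (6.38%) were separated upward, 5 (10.6%) downward and 8 in opposite directions. Of 23 SR proteins and their kinases 4 (17.4%) were separated upward, 2 (8.70%) downward and 4 in opposite directions. Among single genes, the neuronal factor NOVA1 fell by 2.01 and MBNL1 by 0.82 on the log2 scale, and the SR protein gene SRSF4 fell by 0.85 (adjusted p = 0.0111, 0.0275 and 0.0180 from limma). Of 72 genes of DNA damage signalling and repair 13 (18.1%) were separated upward and 7 (9.72%) downward, against 12.4% and 10.3% of all genes. All 3 that passed were falls, where 2.49% of all genes passed downward. They were RAD51B, FANCC of the Fanconi pathway (-0.84, adjusted p = 0.0293 from limma) and the damage kinase gene ATM (-0.72, adjusted p = 0.0486 from limma), although a second ATM probe changed by 0.31. Of 41 caspase and BCL2 family genes 4 (9.76%) were separated each way, near the shares of all genes. BIK, which promotes apoptosis, rose by 1.15 (adjusted p = 0.0358 from limma), BCL2L11 changed by 0.72 and the antiapoptotic BCL2 by -0.999 without passing (adjusted p = 0.0769 and 0.0791 from limma).

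Other large classes moved apart between the lines. None of the 79 cytosolic ribosomal protein genes was separated the same way in both lines, and 66 were higher in silenced MDAH and lower in silenced SKOV3 cells. Over all genes tested, 1303 (8.38%) were separated in that manner. Of 61 mitosis and spindle genes 37 were separated in that manner and 1 downward in both lines, and of 35 proteasome genes 16 were, with 1 upward in both. The median over the ribosomal protein genes was 0.23 and 0.65 on the MDAH arrays of sh-SFPQ#2 and sh-SFPQ#3 and -0.25 and -0.20 on those of SKOV3. All genes tested had medians of 0.08 and 0.12 on the MDAH arrays and -0.03 and -0.05 on the SKOV3 arrays, and their part in this contrast was not tested. None of the ribosomal protein genes passed for a difference between the lines.

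**Figure D5:**
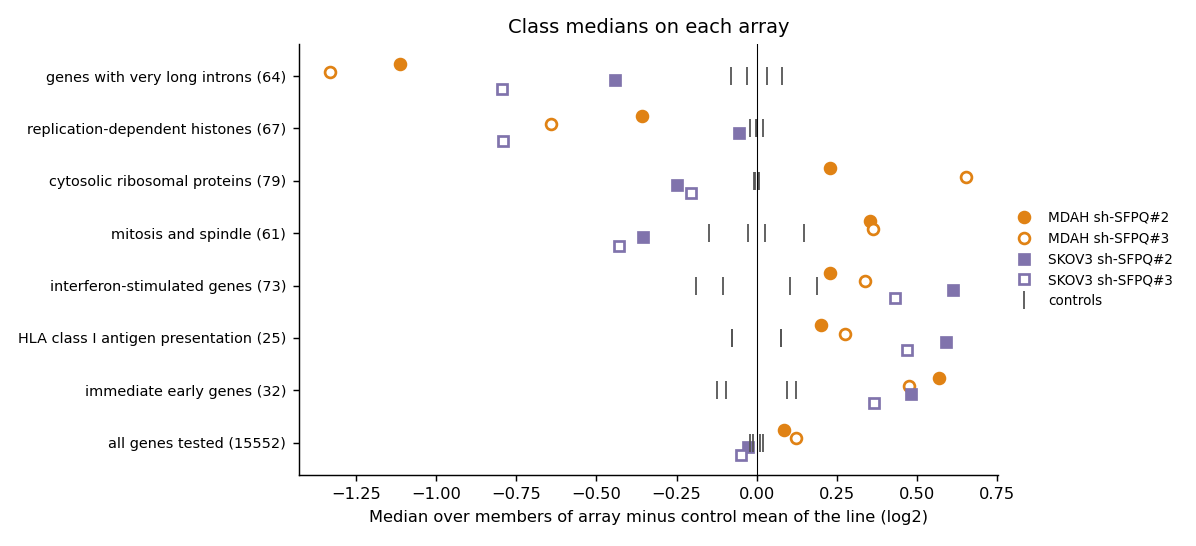
Median over the members of a class of the array's level minus the control mean of its line (log2), for 7 classes and for all genes tested, with circles for MDAH and squares for SKOV3, filled points for sh-SFPQ#2, open points for sh-SFPQ#3 and vertical ticks for the 4 controls. The very long introns lie below all controls on the 4 silenced arrays, the 3 classes of immune and immediate early genes above them, and the ribosomal and mitosis genes lie on opposite sides in the 2 lines.

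Some genes moved both ways at once, by the probe that was read. Of 4111 genes with at least 2 probes above background in a group, the changes of the 2 brightest probes differed for 191 (4.65%, adjusted p under 0.05 from limma on the within-array difference of the probes, in which the scaling of the array cancels). In 90 genes a probe was separated upward in both lines and another downward, and in 13 of them probes passed in both directions. These were ADARB1, BACH1, CNOT4, FAM53B, HDAC8, HIPK2, LYRM4, MVB12B, NSD2, RAD54B, SCD5, SPIN3 and ZNF407. Of the 191 pairs 96 carried the same accession. The comparison was chosen after the data were seen, and the array file assigns the opposed probes shown here to different RefSeq transcripts of the gene.

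LYRM4 encodes a protein of iron-sulfur cluster assembly. Its brightest probe, assigned to NM_020408, stood at 3.65 and 3.83 in MDAH controls against 2.67 and 1.58, and at 4.38 and 4.48 in SKOV3 controls against 3.30 and 1.83. The probe for NM_001164840 stood at -2.12 and -1.81 against 0.84 and 1.77, and at -0.61 and -0.46 against 2.27 and 3.09, so that LYRM4 changed by -1.74 on the former and by 3.24 on the latter (adjusted p = 0.0338 and 0.00261 from limma over all probes). For MVB12B the probes of NM_033446 changed by -3.29 and -2.05 and that of NM_001011703 by 3.29. The latter was above background on 5 arrays only, so that its size is not exact. For ADARB1, an editor of adenosine in RNA, the probe of NM_001112 changed by -2.26 and that of NR_027673 by 2.03. HIPK2, a kinase of the stress response, is counted among the rises above by its brightest probe (NM_001113239, 1.48), whereas its 3 probes of NM_022740 changed by -2.16 to -2.50. Those 3 probes were above background on 8, 6 and 5 arrays, so that the larger falls are not exact. NSD2, a histone methyltransferase, changed by -0.85 on its brightest probe, of NM_133330, and by 0.81 and 1.28 on both probes of NM_007331. In RAD54B, a helicase of recombination, the probe of NM_012415 changed by -0.64 and that of NM_001205262 by 0.95. A single value per gene therefore does not describe these genes, and levels of different probes were not compared.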

How the data were processed

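Total RNA of 8 samples was hybridized to single-colour Agilent arrays. Per the file headers, Feature Extraction 11.5.1.1 subtracted background and spatial trends (the labels name 10.7.3.1), and the authors deposited processed intensity values per spot, linear and not normalized across arrays. Median and background intensities, as deposited, served the normexp alternative. The deposited log2 value table correlated at over 0.9999 with quantile-normalized, probe-centred signals recomputed here. Of 62976 spots, 58717 were not controls and gave 50599 probes, and 209 to 310 outlier spots per array were removed. Replicate spots were averaged by probe, log2 signals were set relative to the array's 75th percentile, and 28174 probes (55.7%) were named through RefSeq accessions, giving 20503 genes. The brightest probe of a gene was tested if both arrays of a group were well above background. A fit with line and silencing as terms was made with limma 3.58.1 in R 4.3.3 (5 residual and 2.94 prior degrees of freedom), with Benjamini-Hochberg adjustment over all genes and a threshold of 0.05, and was tested on simulated data. In 6 genes an outlier spot left an array without a value, and the fit dropped that array. Where both arrays of a group were not well above background, the fold is a bound: each array of the dim group was raised to its faintest probe well above background, if below it, before the group means were compared. A dim array in a group with 1 array above background was not raised, so that for such genes the bound is not strict. The number of arrays limits the precision. Members and the 55 gene lists were chosen with earlier results of these data known. Genes were named by rule: SFPQ, its partners and genes linked to the study, the 15 highest and 15 lowest among called, separated genes above background on all arrays, the 5 highest and lowest bounds, and the 3 highest and lowest separated members of each list. Some named items are not reported here. Others, such as the remaining called members of a list, were chosen after their values were seen. Alternatives covered scaling, background, filters, probe choice, model, test, leaving out arrays, and each line alone.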

Additional observations from a re-analysis of the deposited data

Results flagged for a closer look

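Over the 4 silenced arrays, each taken as its change from the control mean of its line, 1 array stood apart from the other 3 for 8 of the 128 genes examined. Chance gives such a gap in about 1 of 20 groups, so that this number is near what chance gives. The gap to the nearest value, as a share of the range, was 0.898 for NALF1 and 0.920 for LINGO2, where the MDAH sh-SFPQ#3 array was lowest, at -6.84 and -7.16, values that for dim probes are not exact. It was 0.894 for EPHB2 and 0.879 for BMPR2, a receptor of bone morphogenetic proteins, where the SKOV3 sh-SFPQ#3 array was lowest, at -3.73 and -2.80. The same array was highest for IQCH, with a share of 0.844, and lowest for the transcription factor gene KLF10, with 0.926. For ERRFI1, with a share of 0.954, the SKOV3 sh-SFPQ#2 array was lowest, and for UBA7, with 0.842, the MDAH sh-SFPQ#2 array was.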

How the results depend on the processing

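With 8 arrays the counts of passing genes moved widely, while the medians of 5 lists (very long introns, histones, interferon, HLA class I, immediate early) kept their direction in all alternatives run. Against 202 genes higher and 387 lower, 15 and 128 passed in MDAH alone, 0 and 0 in SKOV3 alone, 0 and 0 without both arrays of control 1, 0 and 5 without both of control 2, 424 and 886 without both sh-SFPQ#2 arrays, 50 and 154 with no filter on dim probes, 1 and 4 by the methods' t-test after Benjamini-Hochberg adjustment, and 531 and 607 by that test unadjusted. The higher count alone moved with a 4-group model (314), an eBayes trend (327), normexp background (349), probes well above background on all arrays (317) and without both sh-SFPQ#3 arrays (72). With the replicate number as a block 282 and 623 passed. Between the lines the deviations of same-numbered arrays correlated at 0.08 for controls and 0.36 for silenced arrays. For silenced arrays the number is that of the shRNA. Whether a control number marks the same kind of control in both lines is not given by the sources. Genes separated upward or downward numbered 5530 and 3329 in MDAH alone, 4024 and 4987 in SKOV3 alone, 3821 and 3263 without sh-SFPQ#2, 3265 and 2699 without sh-SFPQ#3, 3198 upward without control 2 and 2544 downward without control 1. Leaving out arrays or a line loosens the rule for separation, so that such counts, also those of list members, could only stay the same or rise. Genes differing between the lines, 15, became 28 in the authors' value table, 29 with quantile normalization, 23 with median centring, 32 with the mean of probes, 390 without sh-SFPQ#2, 37 without sh-SFPQ#3, and 0 without either control, with normexp or with probes above background on all arrays. Separated members became 17 for very long introns with such probes, 46, 47 and 17 for histones in MDAH alone, without sh-SFPQ#2 and with normexp, 44 and 48 for interferon-stimulated genes in SKOV3 alone and without control 2, 7 for HLA class I in the value table and with quantile normalization, and 23 for immediate early genes without control 2 or without sh-SFPQ#3. Medians became 0.51 and 0.56 for interferon-stimulated genes in SKOV3 alone and without control 2, 0.54 for HLA class I in SKOV3 alone, and 0.41 and 0.76 for immediate early genes without control 1 or control 2. SFPQ did not pass in MDAH alone (-1.50), SKOV3 alone (-2.01), without control 1 (-1.78) or control 2 (-1.73), or by the adjusted t-test (-1.75). HIPK2 (-1.37) and LYRM4 (0.011) reversed with the mean of probes, and NONO became 0.17 in MDAH alone, 0.011 without sh-SFPQ#3 and 0.015 with the mean of probes, and ranged from -0.134 to 0.0522 with 1 array left out.

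With 1 array left out, passing genes ranged from 9 to 205 and 42 to 444, separated genes from 2242 to 2621 and 1875 to 2328, and genes differing between the lines from 0 to 182. Fewer arrays had to agree in these fits, so that counts of separated genes or members could only stay the same or rise. Their ranges therefore do not measure how far separation depends on single arrays. List medians ranged from -1.08 to -0.78 (very long introns), -0.64 to -0.32 (histones), 0.30 to 0.42 (interferon), 0.32 to 0.43 (HLA class I) and 0.48 to 0.68 (immediate early), and separated members from 34 to 38, 27 to 44, 27 to 35, 12 to 14 and 15 to 21. SFPQ ranged from -1.88 to -1.60, with a highest adjusted p of 0.0429 from limma. The cause of these changes was not tested. Leaving out pairs of arrays was chosen after the data were seen.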
